A study of Mus musculus with 6 samples.

Results

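Mitotic kinases, kinesins and spindle genes are described here as a set of 47 genes of cell division, compared between fibroblasts with and without working p53. The members were the rows of the deposited count table whose gene symbol matched a fixed list, and all 47 were found among 23420 genes. All 47 also passed the filter on low counts, which left 13044 genes to test. Psrc1 and Ckap2 are also listed as p53 targets, so their values are set against those of the other 45 members.

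The study measured gene expression by RNA sequencing in mouse embryonic fibroblasts of mixed 129/Sv-C57BL/6 strain. All cells carried E1A, an adenoviral protein that disables the retinoblastoma family, and HrasG12V, an activated Ras. Each of 3 lines was sequenced after a non-targeting control guide (sgNTC, with p53 wild-type) and after a guide directed at p53 (sgp53(1), written sgp53 here), 1 library each. By their labels the sgp53 cells of lines 1 and 3 were p53 null and those of line 2 were functionally inactive. All cells were kept in 5% oxygen at 37 °C for 24 h after plating, and no other treatment is named. Whether each line is a separate embryo, and whether edited cells were clones, is not in the labels, so p-values reach no further than these 3 lines. In the main comparison, which does not pair the libraries of a line, they measure the spread between libraries of the same guide. Blocked on the line, they measure how far the guide difference varies between lines. The sample descriptions of lines 2 and 3 carry a common number and that of line 1 another. What the number marks is not stated.

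As background, a cell enters mitosis when Cdc25 phosphatases switch on Cdk1 bound to cyclin B, and the Polo and Aurora kinases then build the spindle. The spindle checkpoint holds back Cdc20 until every chromosome is attached, after which the anaphase-promoting complex destroys securin and frees separase. These genes are transcribed together in G2 and M phase. Their promoters typically pair a cell cycle homology region (CHR) with CCAAT boxes. In general, p53 is known to repress many of these genes through p21 and the DREAM complex. Whether that route was active in these cells, which all carry E1A, was not tested.

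The 6 libraries held between 27503577 and 35860866 counts. The targeted gene followed the labels: Trp53 stood at 206, 277 and 253 CPM (counts over the library total after normalization) in sgNTC lines 1, 2 and 3 and at 71.1, 72.0 and 113 CPM in those lines with sgp53. The log2 fold change of Trp53 was -1.52 (edgeR adjusted p = 0.0168, SE 0.210). It did not pass without sgp53 line 1 (edgeR adjusted p = 0.0679), sgp53 line 2 (0.0507) or sgNTC line 3 (0.0721), nor without both libraries of any line (0.0731 to 0.112), though its log2 fold change stayed between -1.78 and -1.31 in all 9 fits that left out a library or a line. The p53 target Cdkn1a, which encodes p21, fell by 3.01 on the log2 scale, and its groups did not overlap. Fibroblast markers were present in every library, with a summed level of 5970 to 7030 CPM in sgNTC and 7290 to 10200 CPM in sgp53 for 10 markers. Summed epithelial markers, mostly Krt18, stood at 259 to 646 CPM in sgNTC and 88.7 to 132 CPM in sgp53, and immune, endothelial and muscle markers summed to at most 10.4 CPM in any library. Cd3e had no count, and Ptprc, Itgam, Pecam1, Cdh5, Myod1, Myog and Krt14 stayed under 1 CPM in every library. The part of these marker differences in the results below was not tested. The library of sgp53 line 3 held 3336 CPM of the ribosomal RNA gene Rn45s against 636 to 863 CPM in the others, a gene named after its values were seen.

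Most mitotic genes stood slightly higher in sgp53 cells, and Psrc1 and Ckap2 stood lower. In edgeR's quasi-likelihood test, with p-values adjusted over all genes tested and a threshold of 0.05, 4 of 47 members rose (Bub1b, Cdc20, Espl1 and Kif22). In the same comparison 2.76% of all genes tested were called higher and 3.69% lower. The 2 members that fell were Psrc1 and Ckap2. At an unadjusted p under 0.05 stood 20 of the 47 members (42.6%), against 29.0% of all genes tested. Of the other 45, 36 had a fold change above 0 (80.0%, against 48.5% of all genes tested), and their median log2 fold change was 0.165 against -0.0102 for all genes. The differences were small: the 45 spanned -0.16 to 0.44 on the log2 scale. These genes are transcribed together, so a single library can move many of them at once, and their counts are not independent. The members were also chosen with earlier results of these data known. All 3 sgp53 libraries lay above all 3 sgNTC libraries in 20 of the 45, where 17.8% of all genes tested did so, and below them in 0 of the 45, where 19.0% of all genes did. Blocked on the line, the same test called 1 member higher (Bub1b) and 1 lower (Psrc1), with 0.966% and 1.42% of all genes called. DESeq2 called 8 members higher and 2 lower, where it called 8.59% and 8.61% of the genes it tested. With any 1 of the 6 libraries left out, the 4 genes that rose did not pass, except Espl1 without sgp53 line 2. The same 6 fits called 24 to 251 of all genes higher, against 360 with all libraries. Over these 6 fits the edgeR adjusted p was 0.0574 to 0.0932 for Bub1b, 0.0669 to 0.122 for Cdc20, 0.0415 to 0.105 for Espl1 and 0.0672 to 0.115 for Kif22. Scaled by library totals alone, 32 of the 45 stood above 0 (Cenpf, Incenp, Top2a and Ncaph turned below it) and 3 rose, while the median of all genes moved to -0.0546. In bulk RNA, a larger share of cells in G2 and M phase and more RNA per dividing cell cannot be told apart.

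**Figure D1:**
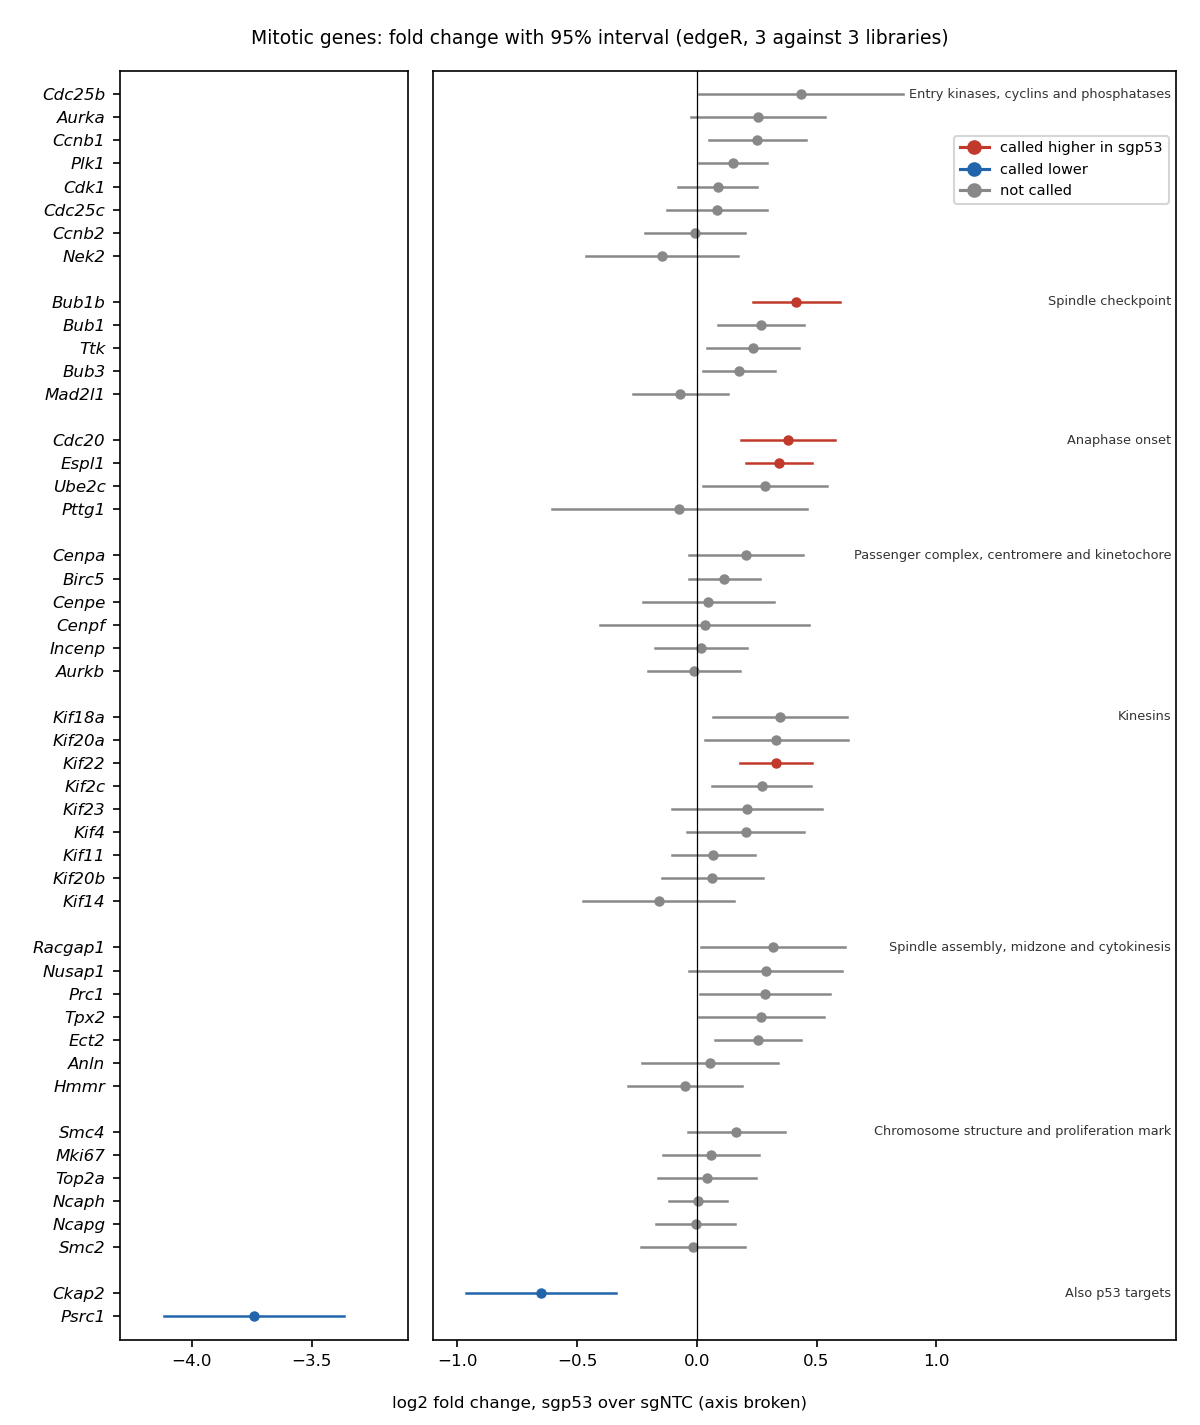
Log2 fold change of sgp53 over sgNTC (x axis, broken between Psrc1 and the rest) for the 47 mitotic genes (y axis), grouped by role. Points are edgeR estimates from 3 against 3 libraries and bars are 95% intervals. Most grey and red points lie right of 0, while Ckap2 and Psrc1 lie left of it at -0.65 and -3.74.

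Both p53 targets and the 3 risen members of smallest adjusted p are shown by their promoters, because promoters of this class are known for the letters searched below. Each sequence runs 5′ to 3′ on the gene's own strand, from 250 bases before to 50 bases after a RefSeq start (GRCm38.p6). Capitals mark the CHR letters, TTTGAA or TTCGAA. They also mark CCAAT boxes and the consensus decamer of p53, each on either strand, so that a CHR can read TTCAAA. A box of CCAAT letters on the opposite strand appears in print as ATTGG. The windows are chr3:108383588-108383887 (plus strand) for Psrc1, chr8:22185770-22186069 (minus) for Ckap2, chr15:102296043-102296342 (plus) for Espl1, chr2:118597961-118598260 (plus) for Bub1b and chr7:127042371-127042670 (minus) for Kif22.
Psrc1: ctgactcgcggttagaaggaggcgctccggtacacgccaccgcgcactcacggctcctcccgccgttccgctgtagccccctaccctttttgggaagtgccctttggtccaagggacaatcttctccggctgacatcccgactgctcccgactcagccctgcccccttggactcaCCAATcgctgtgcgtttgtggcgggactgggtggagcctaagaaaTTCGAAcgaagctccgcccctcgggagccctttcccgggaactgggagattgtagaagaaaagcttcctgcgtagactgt
Ckap2: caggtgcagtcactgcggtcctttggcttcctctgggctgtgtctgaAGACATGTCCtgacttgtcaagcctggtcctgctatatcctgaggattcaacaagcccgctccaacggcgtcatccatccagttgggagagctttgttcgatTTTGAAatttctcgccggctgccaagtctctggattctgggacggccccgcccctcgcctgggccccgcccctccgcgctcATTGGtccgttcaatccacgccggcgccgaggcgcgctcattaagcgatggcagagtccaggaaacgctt
Espl1: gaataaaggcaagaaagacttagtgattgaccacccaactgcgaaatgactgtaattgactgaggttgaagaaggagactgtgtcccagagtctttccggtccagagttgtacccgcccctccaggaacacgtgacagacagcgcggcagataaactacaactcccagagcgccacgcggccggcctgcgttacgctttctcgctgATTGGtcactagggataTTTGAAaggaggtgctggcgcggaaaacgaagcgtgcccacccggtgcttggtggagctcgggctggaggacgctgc
Bub1b: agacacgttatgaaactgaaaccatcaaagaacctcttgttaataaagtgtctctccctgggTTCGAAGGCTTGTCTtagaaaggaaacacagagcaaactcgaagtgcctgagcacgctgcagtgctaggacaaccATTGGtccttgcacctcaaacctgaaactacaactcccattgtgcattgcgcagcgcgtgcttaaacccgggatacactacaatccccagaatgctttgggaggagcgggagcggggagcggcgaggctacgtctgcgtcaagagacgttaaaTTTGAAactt
Kif22: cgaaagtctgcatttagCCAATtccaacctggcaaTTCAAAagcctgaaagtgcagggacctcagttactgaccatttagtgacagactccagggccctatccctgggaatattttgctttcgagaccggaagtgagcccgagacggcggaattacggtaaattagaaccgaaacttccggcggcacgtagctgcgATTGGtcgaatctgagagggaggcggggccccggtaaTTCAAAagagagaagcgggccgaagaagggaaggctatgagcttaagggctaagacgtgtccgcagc

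The promoter of Psrc1 held the same letters as those of the genes that rose: TTCGAA began at -30 and CCAAT at -75, with the annotated start base as 1. In Espl1, TTTGAA began at -27 and ATTGG at -44. In Kif22, TTCAAA began at -17 and ATTGG at -54, and each had another match farther upstream. Bub1b held TTTGAA at 41, past its start, and TTCGAA at -188, which overlapped a p53 decamer by its last base. Ckap2 held a p53 decamer at -203, TTTGAA at -101 and ATTGG at -20. A match is a string of letters, and no binding was measured here.

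Among the 41 members with a window in the RefSeq table, 32 (78.0%) held TTTGAA or TTCGAA, against 19.2% of all 32851 windows of that length. Each member was searched in the window nearest its principal transcript start, while the background counted every window without that choice. The shares of members and of windows are therefore not matched. CCAAT was held by 32 (78.0%, against 37.4%), and 29 (70.7%, against 7.52%) held both. A p53 decamer was found in 5 of 41 (12.2%, against 8.36%), namely Bub1b, Kif23, Birc5, Smc2 and Ckap2. A pair of decamers at most 13 bases apart was in 0 of 41, and in 0.0731% of all windows. Only exact matches to the consensus within each window were counted, so a site with mismatches or outside the window would be missed. The 0 of 41 thus does not show that Psrc1, Ckap2 or another member lacks a p53 site. Leaving out Psrc1 and Ckap2, the 27 members with both CHR letters and CCAAT had a median log2 fold change of 0.204 (-0.16 to 0.44) and included the 4 that rose. The 12 without both had a median of 0.0603 (-0.15 to 0.35) and 0 called. The ranges overlap, and the difference was not tested. Aurkb, Cdc25c, Kif20a, Incenp, Tpx2 and Smc4 had no window in the table.

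Psrc1 (chromosome 3, 108383839 to 108388231, GRCm38), a microtubule-binding protein that helps kinesins shorten spindle fibres, showed the only difference above 2-fold among the 47 members. It measured 148, 197 and 178 CPM in lines 1, 2 and 3 with sgNTC and 14.4, 13.8 and 10.9 CPM in those lines with sgp53. Every sgp53 library was below every sgNTC library by a wide margin, and within the lines the log2 difference was -3.35, -3.83 and -4.02. The fall was 13.4-fold, a log2 fold change of -3.74 (SE 0.156, 95% interval -4.12 to -3.37, edgeR adjusted p = 0.00051, blocked 0.00767). Psrc1 was called in 16 of 16 alternative fits, with adjusted p from 1.9e-125 to 0.0223. Per kilobase of merged exon it went from 51.9 to 3.88 CPM, which put it near Ccnb1 (47.4) in sgNTC and near Kif18a (4.3), a scarce message, in sgp53.

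Ckap2 (chromosome 8, 22168160 to 22185819), a protein that nucleates and stabilises spindle microtubules, also fell, by much less. It stood at 102, 136.5 and 123 CPM in lines 1, 2 and 3 with sgNTC and at 71, 72.5 and 86.8 CPM in those lines with sgp53. The groups did not overlap, and the difference was largest in line 2 (log2 -0.53, -0.91 and -0.50 in lines 1, 2 and 3). The log2 fold change was -0.65 (SE 0.129, 95% interval -0.96 to -0.34, edgeR adjusted p = 0.0402, range over 16 alternatives 0.000153 to 0.169). It did not pass with the line as a block (edgeR adjusted p = 0.0633), and of the 9 fits that left out a library or a line it passed in 1, that without sgNTC line 1 (edgeR adjusted p = 0.0305). The 95% intervals of Psrc1 and Ckap2 lay below those of the 4 members that rose, as calls in opposite directions require. Among the other 45 members, only the intervals of Nek2, Pttg1, Cenpf and Kif14 reached as low as the upper bound of Ckap2.

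**Figure D2:**
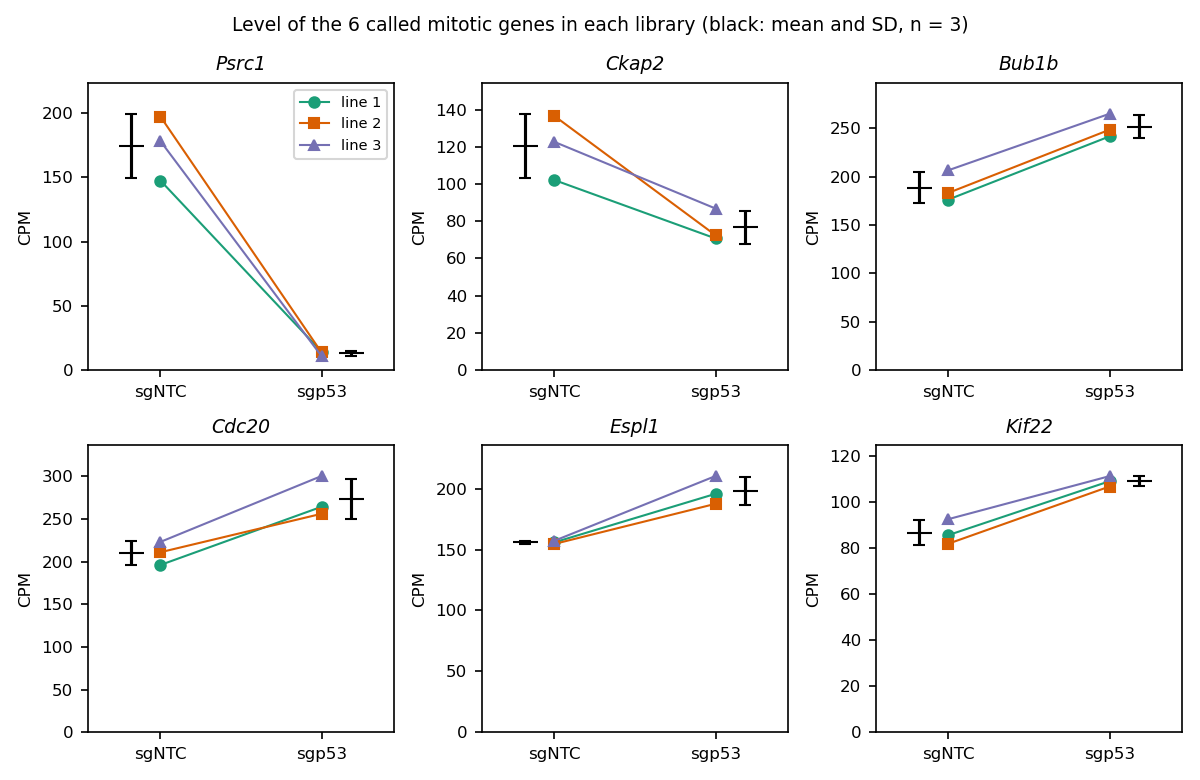
Level in CPM (y axis, from 0) of the 6 called mitotic genes in each library (x axis, guide), with lines joining the libraries of a line and black marks for mean and SD (n = 3 each). Psrc1 goes from 148 to 197 CPM in sgNTC to at most 14.4 CPM in sgp53, and each of the other 5 moves one way in all 3 lines.

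Of the 8 entry kinases, cyclins and phosphatases, 6 stood above 0, with a median log2 fold change of 0.119. In edgeR 0 of 8 were called, and DESeq2 called 1, Ccnb1. An unadjusted p under 0.05 was found for 3 (37.5%, against 29.0% of all genes tested). Ccnb1, the cyclin that activates Cdk1, stood at 189.5, 197 and 213 CPM in lines 1, 2 and 3 with sgNTC and 221, 229 and 264 CPM in those lines with sgp53. All sgp53 libraries were above all sgNTC libraries, with a log2 fold change of 0.25 (edgeR adjusted p = 0.114, SE 0.0843, range over alternatives 0.0462 to 0.26). Ccnb1 has 4 pseudogenes of at least 95% identity, Ccnb1-ps the nearest at 99.2% over 1287 bases, so its count is uncertain.

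The phosphatase Cdc25b had the highest estimate of all members at 0.44, with a wide 95% interval of 0.01 to 0.86. It ranged from 59.5 to 67.5 CPM in sgNTC and from 69.2 to 112.5 CPM in sgp53, where line 3 alone exceeded 100 CPM and carried a log2 difference of 0.74 against 0.22 and 0.27 in lines 1 and 2. Its edgeR adjusted p was 0.165. The Polo kinase Plk1 was 150.3 to 167 CPM in sgNTC and 170.3 to 182 CPM in sgp53 (log2 0.15), and its groups did not overlap. Those of the spindle pole kinase Aurka did, at 89.4 to 106 and 104 to 132 CPM (log2 0.25).

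Cdk1 itself, the kinase that drives entry, was at 270.4 ± 12.5 CPM in sgNTC and 287 ± 19.3 CPM in sgp53 (SD, n = 3 each). That is 0.09 on the log2 scale, with a 95% interval of -0.08 to 0.25. Cdc25c, another activating phosphatase, had a log2 fold change of 0.08, and the second mitotic cyclin Ccnb2 one of -0.01 (95% interval -0.22 to 0.20). The centrosome kinase Nek2 was the lowest of the 8 at -0.15, with line 2 at -0.44 and the other lines at 0.10 and -0.06. Its 3 sgNTC libraries spread from 126 to 177 CPM, wider than the 130.2 to 153 CPM of sgp53.

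The 5 spindle checkpoint genes delay anaphase while kinetochores are unattached. Of these, 4 stood above 0 (80.0%, against 48.5% of all genes tested), and the median log2 fold change was 0.235. Bub1b (chromosome 2, 118598211 to 118641591), which encodes the Cdc20 inhibitor BubR1, rose. It was at 176.5, 183 and 207 CPM in lines 1, 2 and 3 with sgNTC and at 242, 248.7 and 265 CPM in those lines with sgp53. The groups were well apart, and the lines were alike in their log2 differences of 0.45, 0.44 and 0.36. The log2 fold change was 0.42 (SE 0.0757, 95% interval 0.23 to 0.60), with an edgeR adjusted p of 0.0320, 0.0479 with the line as a block and 4.82e-05 to 0.144 over all 16 alternatives.

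The other checkpoint genes had smaller estimates and were not called. The kinase Bub1 was at 138.5 to 157 CPM in sgNTC and 166.5 to 191 CPM in sgp53, with log2 differences of 0.25, 0.27 and 0.28 in the lines and an edgeR adjusted p of 0.0798. The kinase Ttk (Mps1), at the top of the checkpoint, had a log2 fold change of 0.23, and the Bub1 and BubR1 partner Bub3 one of 0.18. In all 3 of these genes every sgp53 library was above every sgNTC library, as in 17.8% of all genes tested. Mad2l1, which encodes the Mad2 protein that captures Cdc20, differed in direction between lines (log2 0.11, -0.21 and -0.09) and stood at 119 ± 12.6 CPM in sgNTC and 113 ± 0.611 CPM in sgp53 (SD, n = 3 each). DESeq2 called Bub1 as well as Bub1b, at adjusted p of 0.0171 and 4.82e-05.

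The 4 genes of anaphase onset had a median log2 fold change of 0.315, and 2 of them rose. Cdc20 (chromosome 4, 118432901 to 118437352), the activator that points the anaphase-promoting complex at securin and cyclin B, was at 196, 211 and 223 CPM in lines 1, 2 and 3 with sgNTC. The same lines with sgp53 held 264, 256 and 300.1 CPM. The groups did not overlap, and line 2 moved least (log2 0.43, 0.28 and 0.43). The log2 fold change was 0.38 (edgeR adjusted p = 0.0480, SE 0.082, 0.0668 with the block, 0.000786 to 0.180 over the alternatives).

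Espl1 (chromosome 15, 102296266 to 102324357), which encodes separase, the protease that cuts cohesin, had nearly the same level in all sgNTC lines, at 156, 155 and 157 CPM. The same lines with sgp53 reached 196, 187.5 and 210.3 CPM, so every sgp53 library was higher. The log2 fold change was 0.34 (SE 0.0574, 95% interval 0.21 to 0.48, edgeR adjusted p = 0.0268, 0.0696 with the block, 1.72e-05 to 0.173 over the alternatives). Ube2c, the ubiquitin-conjugating enzyme of the same complex, was at 162 to 188 CPM in sgNTC and 194.5 to 245 CPM in sgp53 (log2 0.29, edgeR adjusted p = 0.141). It shares 22.8% of its exon bases with Tnnc2 on the other strand, so its count is uncertain.

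Pttg1, which encodes securin, the inhibitor of separase, had no common direction. It was at 40, 38.4 and 55.0 CPM in lines 1, 2 and 3 with sgNTC and at 35.7, 55.6 and 35.7 CPM in those lines with sgp53. It was lower in lines 1 and 3 and higher in line 2, the line labelled functionally inactive, with log2 differences of -0.18, 0.53 and -0.62. The groups overlapped, and the 95% interval of its fold change was the widest of all members, -0.60 to 0.46.

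The 6 genes of the passenger complex, centromere and kinetochore had a median log2 fold change of 0.0405. In edgeR 0 of 6 were called and 0 had an unadjusted p under 0.05, and DESeq2 called 0. Cenpa, the histone variant that marks centromeres, had the smallest p. It was at 85.2, 84 and 106.5 CPM in lines 1, 2 and 3 with sgNTC and at 104, 107 and 106 CPM in those lines with sgp53. The sgp53 libraries lay close together and the sgNTC library of line 3 lay among them, so the groups overlapped (log2 0.20, SE 0.0989).

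Survivin, encoded by Birc5, was the only one of the 6 whose groups did not overlap. It was at 107 to 119 CPM in sgNTC and 120 to 129 CPM in sgp53 (log2 0.12). Over all genes tested, 17.8% had every sgp53 library above every sgNTC library. Its partners in the passenger complex were near 0, with the kinase Aurkb at -0.01 (95% interval -0.21 to 0.18) and the scaffold Incenp at 0.02 (-0.17 to 0.21). The kinetochore motor Cenpe and the kinetochore protein Cenpf were at 0.05 and 0.03. Cenpf ranged from 171 to 251 CPM within sgNTC alone.

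Of the 9 kinesins, the motors that move and shorten spindle fibres, 8 stood above 0 (88.9%, against 48.5% of all genes tested). Their median log2 fold change was 0.21. Kif22 (chromosome 7, 127027729 to 127042471), the chromokinesin that pushes chromosome arms toward the metaphase plate, rose. It was at 85.6, 81.9 and 93 CPM in lines 1, 2 and 3 with sgNTC and at 109, 107 and 111 CPM in those lines with sgp53. The gap between the groups was wider than the spread within either. The log2 fold change was 0.33 (edgeR adjusted p = 0.0348, SE 0.0621, 0.0724 with the block, 0.000247 to 0.179 over the alternatives), and 1.96% of its exon bases are shared with the antisense gene Gm31749.

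Kif18a, a plus-end motor that damps chromosome movement, had a log2 fold change of 0.35 and was at 31.2 to 34.5 CPM in sgNTC and 37.8 to 49.3 CPM in sgp53. The microtubule depolymerase Kif2c was at 108 to 119 and 127 to 151.5 CPM (log2 0.27), and DESeq2 called it at an adjusted p of 0.0380 where edgeR gave an adjusted p of 0.101. Both had every sgp53 library above every sgNTC library, as 17.8% of all genes tested did. Kif20a, a motor of the spindle midzone, had log2 differences of 0.24, 0.29 and 0.44 and groups that overlapped slightly, at up to 177.2 CPM in sgNTC and from 176.7 CPM in sgp53. It shares 29.3% of its exon bases with Cdc23, whose own level went from 99.1 to 117 CPM, so its count is uncertain where the counting ignored strand.

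The midzone motor Kif23 and the chromokinesin Kif4 had log2 fold changes of 0.21 and 0.20, and for both the difference in line 2 was near 0 while line 3 stood at 0.38. Kif11, the motor that separates spindle poles, was at 182 ± 12.2 CPM in sgNTC and 191 ± 11.6 CPM in sgp53 (SD, n = 3 each; log2 0.07). Kif20b, which acts in cytokinesis, had a log2 fold change of 0.06. Kif14, another cytokinesis motor, was the lowest of all 45 at -0.16, with differences of 0.11, -0.28 and -0.25 in the lines and overlapping groups.

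The 7 genes of spindle assembly, midzone and cytokinesis had a median log2 fold change of 0.268. Above 0 stood 6 of them (85.7%, against 48.5% of all genes tested). In edgeR 0 of 7 were called, and DESeq2 called Ect2. An unadjusted p under 0.05 was found for 4 (57.1%, against 29.0% of all genes). Ect2, the exchange factor that activates RhoA at the division plane, was at 153, 161 and 170.5 CPM in lines 1, 2 and 3 with sgNTC and at 182, 186 and 210.4 CPM in those lines with sgp53. The groups did not overlap and the lines differed little (log2 0.25, 0.21 and 0.30). Its log2 fold change was 0.25 (edgeR adjusted p = 0.0890, SE 0.0751, range over alternatives 0.024 to 0.247).

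Racgap1, the partner of Kif23 in the centralspindlin complex, was at 173 to 191 CPM in sgNTC and 198 to 272 CPM in sgp53 (log2 0.32). Prc1, the crosslinker of midzone microtubules, was at 215 to 249.6 and 264.5 to 337 CPM (log2 0.29), and Tpx2, the activator of Aurora A, at 228 to 260.3 and 269 to 342 CPM (log2 0.27). The microtubule bundler Nusap1 had a log2 fold change of 0.29. For these 4 genes all sgp53 libraries lay above all sgNTC libraries, as they did for 17.8% of all genes tested. None of the 4 was called, and line 3 held the largest difference, from 0.39 for Tpx2 to 0.59 for Racgap1. Prc1 shares 11.1% of its exon bases with Rccd1. The ring scaffold Anln and the spindle protein Hmmr were at 0.06 and -0.05, with overlapping groups.

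The 6 genes of chromosome structure and proliferation had a median log2 fold change of 0.0239, with 0 called by edgeR or DESeq2 and 0 at an unadjusted p under 0.05. Smc4, a condensin subunit, had the smallest p and was at 403, 430.5 and 437 CPM in lines 1, 2 and 3 with sgNTC and 439, 454 and 531 CPM in those lines with sgp53. Its groups did not overlap, though sgp53 line 1 exceeded sgNTC line 3 by little (log2 0.16, SE 0.0846). The other condensin subunits were near 0, with Smc2 at -0.02, Ncapg at -0.0045 and Ncaph at 0.01 (95% interval -0.12 to 0.13). Mki67, which encodes the proliferation mark Ki-67, was at 591 ± 28.2 CPM in sgNTC and 615 ± 59.8 CPM in sgp53, and the decatenating enzyme Top2a at 828 ± 85.5 and 853 ± 32.6 CPM (SD, n = 3 each). Their log2 fold changes were 0.06 and 0.04, and that of Top2a turned to -0.0018 when scaled by library totals alone.

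Per kilobase of merged exon, the mean level in sgNTC ran from 3.36 CPM for Kif18a to 112 CPM for Cdc20. Top2a (91.9), Smc4 (81.3) and Ccnb2 (80.2) followed Cdc20, and Kif14 (6.02) and Cdc25c (6.67) were next to Kif18a at the low end. Whether Smc4 differed from Ccnb2 in this level, or Kif14 from Cdc25c, was not tested. Psrc1 and Ckap2 lay within that span in sgNTC, at 51.9 and 37.4 CPM per kilobase. In sgp53 they were at 3.88 and 24.

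The small upward shift was seen in each line but was not equal. Among the 45 members, 39 had a positive difference in line 1, 30 in line 2 and 36 in line 3, with medians of 0.19, 0.076 and 0.204 on the log2 scale. The medians of all genes tested were -0.0115, 0.0008 and -0.0107 in the same lines. In all 3 lines 22 of 45 members were higher in sgp53, where 25.2% of all genes tested were, and 0 of 45 were lower, where 27.0% of all genes were. Line 3 held the largest difference for 25 of 45, against 33.4% of all genes.

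**Figure D3:**
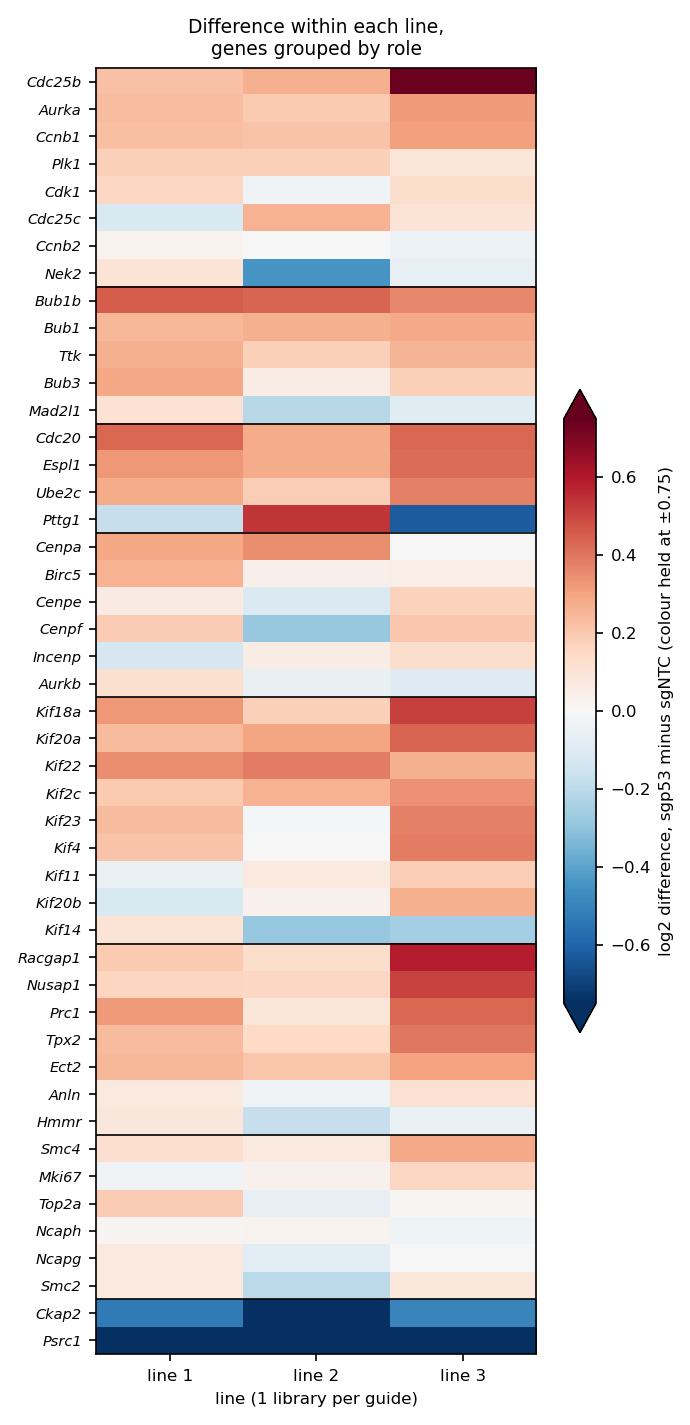
Log2 difference of sgp53 minus sgNTC (colour, held at ±0.75) in each line (x axis, 1 library per guide) for the 47 mitotic genes (y axis), grouped by role with black rules between roles. Red fills most cells above the last block, where Ckap2 and Psrc1 are blue in all 3 lines, and Pttg1 changes colour between lines.

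A pair of libraries stood at the ends of the range for most members. The library of sgp53 line 3 was the highest of the 6 for 29 of 45 members (64.4%, against 23.5% of all genes tested). This was also the library with the most Rn45s, whose part in the result was not tested. The library of sgNTC line 1 was the lowest for 34 (75.6%, against 13.3%). The summed level of the 45 was 7673, 8433 and 8657 CPM in lines 1, 2 and 3 with sgNTC and 8586, 8755 and 9977 CPM in those lines with sgp53, so by this sum sgp53 line 1 lay below sgNTC line 3. Without sgp53 line 3, 31 of 45 members stood above 0 and the median log2 fold change was 0.0934. Without sgNTC line 1, 31 stood above 0 and the median was 0.13. In either fit edgeR called 0 members higher. Over all genes it called 140 higher without sgp53 line 3 and 251 without sgNTC line 1, against 360 with all 6 libraries.

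**Figure D4:**
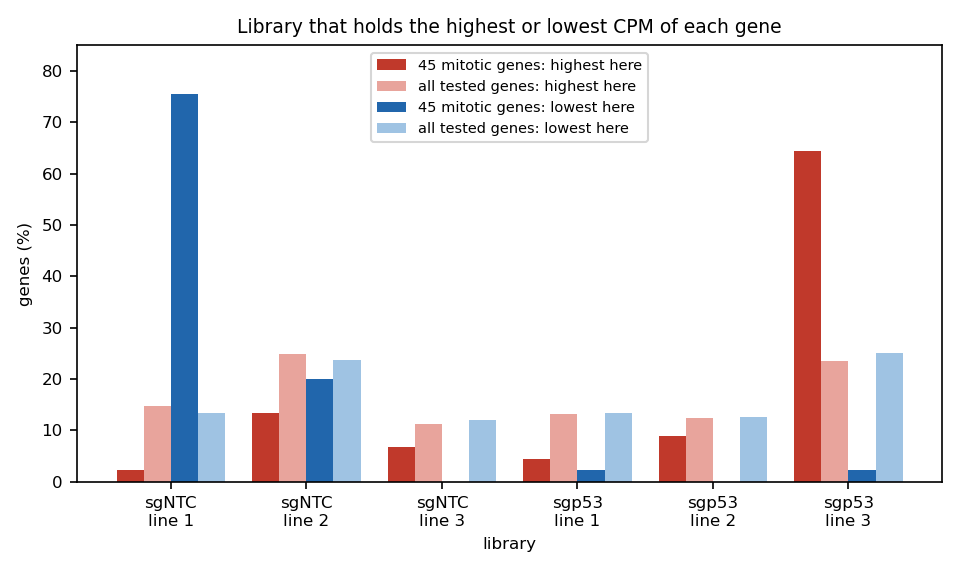
Share of genes in percent (y axis, from 0) whose highest or lowest CPM falls in each library (x axis), for the 45 mitotic genes other than Psrc1 and Ckap2 and for all genes tested. For the mitotic genes the highest level is in sgp53 line 3 for 64.4% and the lowest in sgNTC line 1 for 75.6%.

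Lines were also compared whatever the guide. With guide and line in 1 model, edgeR called 0 of 47 members between lines (0% of all genes tested), with 4 members at an unadjusted p under 0.05 (8.51%, against 3.53% of all genes). The smallest adjusted p of a member was 0.968 in edgeR, and DESeq2 called 0 members and 79 genes in all. The median range between lines was 0.197 on the log2 scale, against a median size of 0.176 for the sgp53 difference. The range between lines exceeded the sgp53 difference in 26 of 47 members, and in this model was widest for Cenpf at 0.469. These measures are unlike, since the range is the highest line less the lowest, with fewer libraries per line than per guide. Noise alone makes such a range larger than a difference between group means. The values therefore do not show whether lines differed as much as guides.

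Other genes of mitosis, listed separately, had a median nearer to 0. Of 142 listed, 141 were tested, with a median log2 fold change of 0.0289 and 75 above 0. Of these, 8 rose (5.67%, against 2.76% of all genes) and 5 fell in edgeR (3.55%, near the background of 3.69%). With the line as a block 2 rose (1.42%, against 0.966%) and 4 fell (2.84%, against 1.42%). Among 37 kinetochore and checkpoint genes 3 rose: Pmf1 of the Mis12 complex (0.30, edgeR adjusted p = 0.0319), Spc24 of the Ndc80 complex (0.28, 0.0326) and the centromere protein gene Cenpn (0.34, 0.048). Of 35 spindle and centrosome genes, Haus7 of the augmin complex rose (41.1, 38.2 and 39.9 CPM in lines 1, 2 and 3 with sgNTC and 51.7, 52.5 and 51.2 CPM in those lines with sgp53, edgeR adjusted p = 0.0210).

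In the same spindle list 3 genes fell. Gtse1, a microtubule-binding protein that also restrains p53, went from 180, 267 and 229 CPM in lines 1, 2 and 3 with sgNTC to 69.4, 65.2 and 75.4 CPM in those lines with sgp53. Its log2 fold change of -1.69 (edgeR adjusted p = 0.00425, SE 0.148, blocked 0.0218) lay between those of Psrc1 and Ckap2. Unlike the members, these other mitotic genes were not sorted by whether they are also p53 targets. Kifc1, a minus-end spindle motor, fell by 0.74 on the log2 scale (edgeR adjusted p = 0.011), and the closely related Kifc5b fell by 0.85 (0.0110). Reads of these related motors may be split between them. Cenpn and Kifc5b are named beyond the rule of up to 2 genes per direction, so that all 3 called genes of their list and direction are given.

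Of 21 entry control genes, Ccna2, which encodes cyclin A, rose by 0.32 on the log2 scale (edgeR adjusted p = 0.0252) and the Cdk subunit gene Cks1b by 0.48 (0.0313). Ccnf, which encodes cyclin F, fell by 0.52 (edgeR adjusted p = 0.0192) and Cdk2 fell by 0.34 (0.0427). Of 19 cohesin and condensin genes Cdca2, which steers a phosphatase to chromosomes, rose by 0.57 (edgeR adjusted p = 0.049). Of 9 tested cytokinesis genes Fam64a (Pimreg) rose by 0.56 (0.0427 in edgeR). None of 20 subunits and regulators of the anaphase-promoting complex was called by edgeR, with 1 called by DESeq2. An unadjusted p under 0.05 was found for 5 (25.0%, against 29.0% of all genes).

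DNA replication genes, which act in S phase, stood on the other side of 0. Of 41, 35 were below 0 with a median log2 fold change of -0.179. In edgeR 2 fell (4.88%, near the 3.69% of all genes) and 0 rose, while DESeq2 called 11 lower (26.8%, against 8.61% of all genes it tested) and 0 higher. An unadjusted p under 0.05, in either direction, was found for 22 (53.7%, against 29.0% of all genes). The replication clamp Pcna went from 244, 277 and 247 CPM in lines 1, 2 and 3 with sgNTC to 188, 208 and 182 CPM in those lines with sgp53 (log2 -0.41, edgeR adjusted p = 0.0348), and Rpa1, which coats single strands, fell by 0.37 (0.0492 in edgeR). Within lines 1, 2 and 3 their median difference was -0.087, -0.23 and -0.136, where that of the 45 mitotic genes was 0.19, 0.076 and 0.204. The difference between these 2 groups of genes was not tested. Replication genes, Pcna among them, were not sorted by whether they are also p53 targets.

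**Figure D5:**
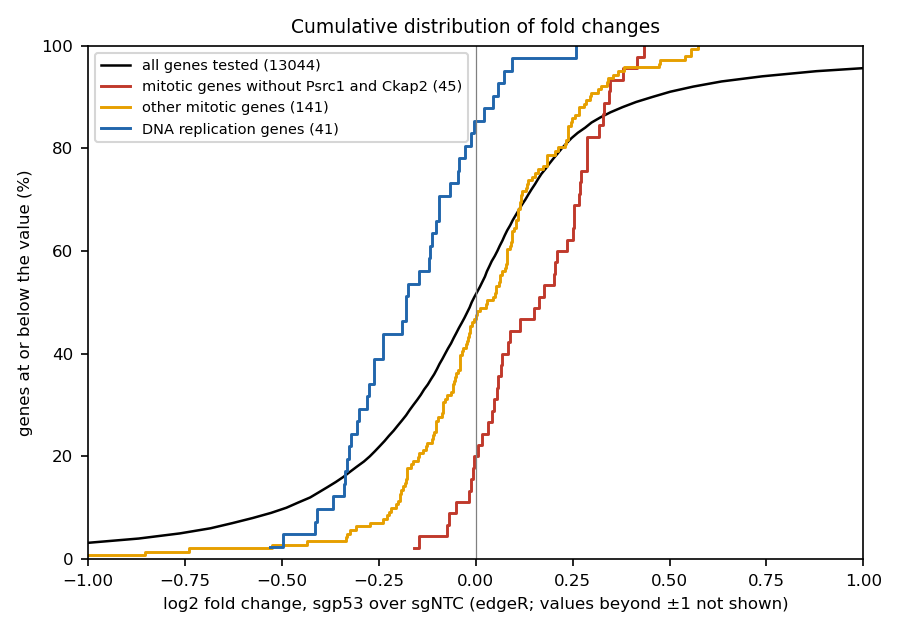
Cumulative share of genes in percent (y axis) at or below each log2 fold change (x axis, sgp53 over sgNTC, values beyond ±1 not drawn) for all genes tested, the 45 mitotic genes, 141 other mitotic genes and 41 DNA replication genes. The mitotic curve lies to the right with a median of 0.165, and the replication curve to the left with a median of -0.179.

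Counts of overlapping and copied genes limit single members. The table's counts came from a stranded kit, but the strand setting of the counter is not given in the sources used here. By GENCODE M21, 14 of the 47 members share exon bases with another gene, from 0.112% in Kif18a to 29.3% in Kif20a, and Ncapg (13.4%, with Lcorl), Kif4 (15.1%, with Pdzd11) and Cdc25c (12.7%, with Gm3550) are among them. Mad2l1, Mki67 and Racgap1 each have a pseudogene of at least 95% identity.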

How the data were processed

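RNA was sequenced from 6 libraries. Per the labels' protocols, RNA of integrity number above 8.0 went into a stranded TruSeq kit, 1 µg per library. The authors deposited raw read counts per gene symbol, not normalized. CASAVA 1.8, STAR, DESeq2 and mm10 stand in the submitters' processing notes without roles, and the counter is not given in the sources used here. Of 23420 genes 5885 had no count, and 27 names had become dates.

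The quasi-likelihood test of edgeR 4.0.16 (R 4.3.3) was applied to the counts (TMM, filterByExpr, Benjamini-Hochberg over 13044 genes, threshold 0.05, 4 residual degrees of freedom). An exact permutation test of 3 against 3 libraries cannot go below 0.1. SE is the coefficient over the square root of F. Within a line, log2 CPM values (prior count 2) were subtracted. Libraries of a group differed by more than sampling noise (chi-square per degree of freedom 21.8 to 58). Exon lengths and overlaps came from GENCODE M21, and copies from alignments of at least 200 bases. Promoters came from RefSeq, by the start nearest the principal transcript. Alternatives were DESeq2 1.42.0, limma 3.58.1 (voom), other scalings, no filter, edgeR's newer dispersion method (chosen after seeing the data) and left-out libraries. The procedure was tested on simulated data.

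The line numbers pair the libraries, since by the labels both libraries with a number come from 1 cell line. Deviations of paired libraries from their group means correlated at 0.089, 0.0018 and -0.027 in lines 1, 2 and 3. The blocked fit has 2 residual degrees of freedom.

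The members and lists were chosen with earlier results of these data known. All 47 members are named: those called in either fit and, per role, that of smallest p with every library, the rest by fold change or range. Of each other list, up to 2 called genes per direction are named, with Cenpn and Kifc5b beyond that.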

Additional observations from a re-analysis of the deposited data

Results flagged for a closer look

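Pttg1, the securin gene, was picked out because its difference between sgp53 and sgNTC was at least 0.25 on the log2 scale in opposite directions in different lines. The log2 difference was -0.18 in line 1, 0.53 in line 2 and -0.62 in line 3. With 1 library per guide in each line, the difference between lines was not tested. The overall fold change of Pttg1 was not called by edgeR (adjusted p = 0.852), and its groups overlapped.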

How the results depend on the processing

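With the line as a block, pairing the libraries of a line, edgeR called 1 member higher and 1 lower, against 4 and 2 without it. The block also gave 2 other mitotic genes higher and 1 replication gene lower, against 8 and 2. DESeq2 gave 8 members higher, 17 other mitotic genes higher and 11 replication genes lower. Scaling by library totals alone or limma-voom left 3 members higher. Leaving out a library or a line gave 0 to 1 members higher, with 1 (Espl1) only without sgp53 line 2, and 1 to 2 lower, with Psrc1 in all 9 such fits and Ckap2 only without sgNTC line 1. Over all genes these fits called 4 to 251 higher and 15 to 449 lower, against 360 and 481 with all libraries. Members called between lines stayed at 0.

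Of 752 fold changes of single members under an alternative, 645 kept direction and side of the threshold, 49 lost the call, 4 gained it and 54 changed sign. The sign changed for 16 members, of which 0 were called in any fit. Scaled by library totals, Cenpf went to -0.013, Top2a to -0.0018, Incenp to -0.029 and Ncaph to -0.04. Ncapg went to 0.0029 with RLE size factors and 0.0019 in DESeq2. With libraries or lines left out, log2 fold changes spanned -0.08 to 0.047 for Ccnb2, -0.09 to 0.036 for Aurkb, -0.148 to 0.016 for Mad2l1, -0.075 to 0.133 for Cenpe and -0.126 to 0.208 for Cenpf. They spanned -0.042 to 0.156 for Kif20b, -0.041 to 0.104 for Top2a, -0.0037 to 0.132 for Mki67, -0.04 to 0.095 for Incenp, -0.271 to 0.022 for Nek2 and -0.144 to 0.023 for Hmmr. The span was -0.051 to 0.131 for Anln, -0.063 to 0.045 for Ncapg, -0.015 to 0.033 for Ncaph, -0.088 to 0.087 for Smc2 and -0.407 to 0.216 for Pttg1. The cause of these changes was not tested, beyond the fewer libraries and residual degrees of freedom that the left-out and blocked fits have by construction.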
